A study of Homo sapiens with 12 samples.

Results

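PERK dependence of the STING response was measured here as a difference of differences. For each gene, the change from vector to STING in wild-type cells was subtracted from the change from vector to STING in PERK knockout cells, so that a positive value means that the knockout STING libraries stood higher, relative to their own vector libraries, than the wild-type ones did. The values are FPKM (fragments per length of transcript, scaled to the number of mapped fragments), and effects are on the log2(FPKM + 1) scale. The measurement was made for the 6340 genes whose mean over the knockout experiment was at least 5 FPKM, out of 12421 symbols listed. At that threshold REPS1 (mean 5.0012 FPKM, difference -0.06) was inside and COG7 (mean 4.9953 FPKM, difference 0.11) was outside.

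All cells were of the HEK293 line, derived from human embryonic kidney. They carried 5 µg of transfected plasmid for 24 h, and RNA was taken from polysome fractions, the part of a sucrose gradient in which RNA carries several ribosomes. The 8 libraries of the knockout experiment were PERK knockout cells with STING, PERK knockout cells with vector, wild-type cells with STING and wild-type cells with vector, with 2 libraries in each. An earlier experiment of the same series, with 2 STING and 2 vector libraries of HEK293 cells, was used as a separate source of STING-responsive genes. How the knockout was made, and whether it is a single clone, is not given in the sources used here. A level in this fraction can move with the amount of an RNA or with its loading onto ribosomes, and in bulk samples fewer cells of a type and less RNA per cell cannot be told apart.

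STING is an adaptor of the endoplasmic reticulum that passes on the signal of cGAS, the sensor of cytosolic DNA, towards interferon and NF-kB genes. PERK, encoded by EIF2AK3, is a kinase of the same membrane that phosphorylates the translation initiation factor eIF2alpha. That phosphorylation slows most initiation while some mRNAs with upstream open reading frames, ATF4 and DDIT3 (CHOP) among them, are still translated. ATF4 and CHOP then switch on genes of amino acid supply, redox balance and cell death, the integrated stress response. The question of the comparison is whether cells without PERK answer STING in another way.

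The libraries had total values between 1100589 and 1379862 FPKM, between 13.1% and 18.1% of symbols at the table's floor of 1, and log2 values that correlated within groups with r from 0.971 to 0.990 across genes. Of 10 HEK293 markers 9 were listed and above the floor, with sums of 395 and 540 FPKM in knockout STING libraries, 330 and 426 FPKM in knockout vector libraries, 177 and 186 FPKM in wild-type STING libraries and 180 and 244 FPKM in wild-type vector libraries. Markers of other cells were low: 2 of 8 haematopoietic genes summed to at most 12.8 FPKM, 2 of 6 hepatocyte genes were listed with 1 of them at the floor throughout and the other at most at 8.79 FPKM, and 1 of 8 fibroblast genes reached 1.75 FPKM. EIF2AK3 stood at 1 and 1.15 FPKM in knockout STING libraries and at the floor in the other 6, so it cannot check the knockout label.

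The level of the STING transcript itself differed between the genotypes. TMEM173, the symbol under which STING is listed, stood at 10511.6 and 7338.3 FPKM in knockout STING libraries and 23.5 and 43.8 FPKM in knockout vector libraries, against 41812.1 and 40660.1 FPKM in wild-type STING libraries and 23.1 and 36.7 FPKM in wild-type vector libraries. STING RNA was thus far above vector in both genotypes, with 4.62 times as much STING RNA in wild-type as in knockout cells (3.87 to 5.70 times over the pairs of single libraries). The difference of effects was -2.37 (SE 0.48, limma unadjusted p = 0.00133, adjusted p = 0.966), the lowest p of the 6340 genes. The knockout label and a lower STING level came together in these libraries and cannot be told apart in any result that follows.

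Across genes, no difference of STING effects passed the test. Limma called 0 of 12254 genes at an adjusted p under 0.05 (0%), the lowest adjusted p being 0.966, while 474 genes had an unadjusted p under 0.05 (3.87%). Among the 6340 genes, 169 had such a p with the knockout effect higher (2.67%) and 45 with it lower (0.71%). The median gene differed by 0.17, because the median STING effect was -0.19 in knockout cells and -0.37 in wild-type cells. After scaling the libraries by median-of-ratios factors the median difference was -0.03 and the split of those genes turned to 73 higher (36.0%) and 130 lower, against 79.0% higher without scaling, so gene lists are given relative to the median of all genes. The median SE of a difference was 0.355 and the median half-width of its 95% interval 0.824 on the log2 scale. That interval is for a single gene without adjustment, and larger differences were not called either. Of the 6340 genes 88 had an absolute difference over 1, and 0 of them passed an adjusted p of 0.05.

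A count that uses no model compared the pairs of libraries directly. In 774 genes (12.2%) the lowest of the 4 STING-minus-vector differences between knockout libraries lay above the highest of the 4 between wild-type libraries, and in 239 (3.77%) the order was the other way round. In 128 of the first set (2.02%) and 28 of the second (0.442%) the effects had opposite signs in each pair of libraries. The 4 differences of a genotype come from 2 STING and 2 vector libraries, so they are not independent. How many genes scatter alone would separate in this way was not worked out, so these counts do not measure an effect. The larger side of the counts depended on the scaling. There were 449 separated genes above and 587 below with median-of-ratios scaling, and 483 above and 581 below with quantile normalization. Opposite signs were then found in 118 above and 157 below with median-of-ratios scaling, and in 142 above and 157 below with quantile normalization, a count added after seeing the data.

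**Figure D1:**
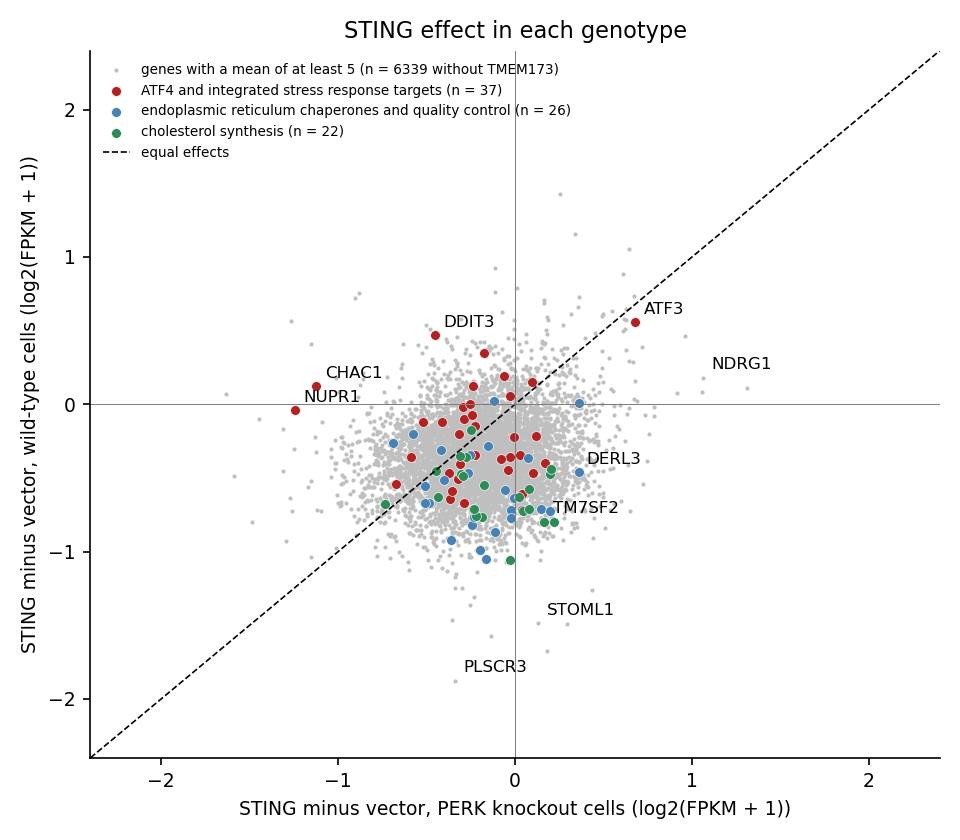
STING effect (STING minus vector, mean of 2 libraries each, log2(FPKM + 1)) of 6339 genes without TMEM173, in PERK knockout cells on the horizontal axis and wild-type cells on the vertical axis; 1 gene lies outside the axes. DDIT3, CHAC1 and NUPR1 lie left of the dashed line of equal effects and ATF3 lies near it. Most endoplasmic reticulum and cholesterol synthesis genes lie right of that line, the side on which the median difference of all genes (0.17) also lies.

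Genes of the integrated stress response, to which PERK signals, are given first. DDIT3, the transcription factor CHOP that links this response to cell death, stood at 43.8 and 37.9 FPKM in knockout STING libraries and 51.9 and 60.7 FPKM in knockout vector libraries, against 81.7 and 80.4 FPKM in wild-type STING libraries and 57.8 and 58.8 FPKM in wild-type vector libraries. Both STING libraries lay below both vector libraries in knockout cells and above them in wild-type cells, with no overlap of the groups. The effect was -0.45 in knockout cells and 0.47 in wild-type cells, a difference of -0.92 (SE 0.24, 95% interval -1.49 to -0.36, limma unadjusted p = 0.00567, adjusted p = 0.966).

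CHAC1, an enzyme that degrades glutathione and a target of ATF4, stood at 8.55 and 5.92 FPKM in knockout STING libraries and 14.5 and 19.2 FPKM in knockout vector libraries, against 21.5 and 23.7 FPKM in wild-type STING libraries and 26.0 and 16.3 FPKM in wild-type vector libraries. The knockout STING libraries were the lowest of all, and the wild-type groups overlapped. Its difference of effects was -1.25 (SE 0.40, 95% interval -2.19 to -0.31, limma adjusted p = 0.966).

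NUPR1, a small stress-induced chromatin protein, had a different layout. It stood at 26.6 and 24.9 FPKM in knockout STING libraries and 72.6 and 53.5 FPKM in knockout vector libraries, against 22.9 and 15.5 FPKM in wild-type STING libraries and 24.6 and 15.3 FPKM in wild-type vector libraries. Here the knockout vector libraries stood out as high and the other 3 groups lay close together. Its difference of effects was -1.20 (SE 0.42, 95% interval -2.17 to -0.24, limma adjusted p = 0.966), while knockout against wild type with vector was 1.63 (limma adjusted p = 0.118).

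ATF4, the central transcription factor of the response, stood at 1753 and 1224 FPKM in knockout STING libraries and 2406 and 2054 FPKM in knockout vector libraries, against 2829 and 2502 FPKM in wild-type STING libraries and 2905 and 2549 FPKM in wild-type vector libraries. The wild-type groups interleaved, and the knockout STING libraries were the lowest. The difference of effects was -0.57 (SE 0.31, 95% interval -1.29 to 0.16, limma adjusted p = 0.966).

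Other genes of the response did not share that layout. ATF3, an early stress transcription factor, stood at 20.0 and 23.5 FPKM in knockout STING libraries and 11.9 and 14.6 FPKM in knockout vector libraries, against 26.1 and 28.8 FPKM in wild-type STING libraries and 16.3 and 20.5 FPKM in wild-type vector libraries. STING libraries were the higher ones in both genotypes, by 0.68 in knockout cells and 0.56 in wild-type cells, and the difference of effects was 0.12 (95% interval -0.57 to 0.82). ASNS, the asparagine synthetase, stood at 26.7 and 40.0 FPKM in knockout STING libraries and 38.8 and 41.6 FPKM in knockout vector libraries, against 25.1 and 22.9 FPKM in wild-type STING libraries and 24.0 and 27.7 FPKM in wild-type vector libraries. Its knockout libraries were mostly above the wild-type ones whatever the plasmid, and the difference of effects was -0.19 (95% interval -0.94 to 0.56). PPP1R15A (GADD34), the phosphatase subunit that reverses eIF2alpha phosphorylation and a gene chosen here after its values were seen, differed by -0.05 (95% interval -0.64 to 0.54).

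**Figure D2:**
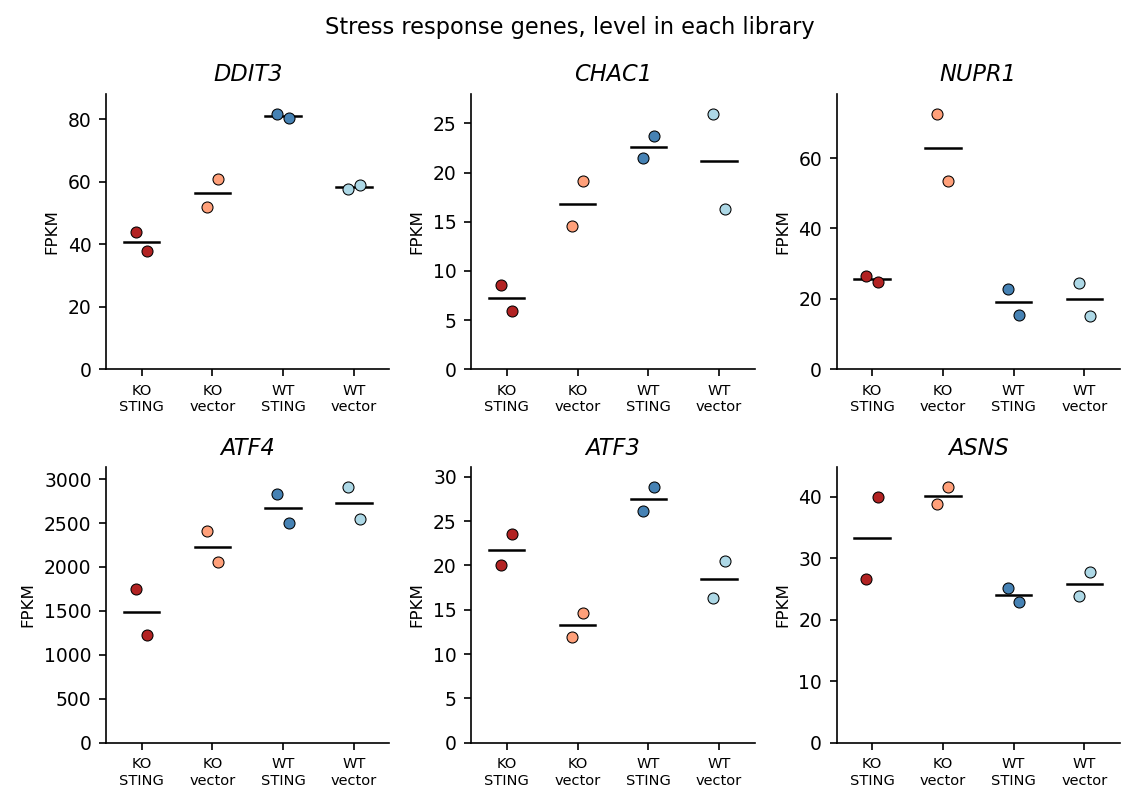
Level in FPKM of 6 stress response genes in each of the 8 libraries, with PERK knockout (KO) groups left of wild-type (WT) groups; points are libraries and bars are means of 2. DDIT3 is lower with STING in knockout cells and higher with STING in wild-type cells, CHAC1 and ATF4 are lowest in knockout STING libraries, NUPR1 is highest in knockout vector libraries, and ATF3 is higher with STING in both genotypes.

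As a list, the ATF4 and integrated stress response targets had 37 of 44 members with a mean of at least 5. DDIT3, CHAC1 and NUPR1 were the 3 with an unadjusted p under 0.05, all with the knockout effect lower, where 0.71% of all genes had such a p in that direction. That share rests on 45 genes, which came to 130 with median-of-ratios scaling and 149 with quantile normalization. Members of the list were not counted under those scalings. The median effect of the list was -0.04 relative to all genes in knockout cells and 0.16 in wild-type cells, and the median difference -0.07, with 22 of 37 members below the median gene, where 50% of all genes lie on each side. That median difference was 0.003 without knockout STING library 1, -0.01 without knockout vector library 2 and -0.01 without wild-type vector library 1. It was -0.28 without knockout STING library 2, -0.22 without knockout vector library 1 and -0.17 without wild-type vector library 2, and -0.12 without wild-type STING library 1. With a minimum mean of 10 it was -0.02, and with quantile normalization -0.15. The range within the list ran from CHAC1 at the low end to ALDH18A1, an enzyme of proline synthesis chosen here for its place in that order, at 0.76. The mRNAs with stress-resistant upstream open reading frames (17 of 22) had a median difference of -0.17 relative to all genes. It lay below that of all genes under each of the 20 alternatives run, some of which cannot move a list's median. It was -0.04 without knockout vector library 2, -0.07 without wild-type vector library 1 and -0.11 without knockout STING library 1. Of the members 13 lay below the median gene, and DDIT3 was the single member with an unadjusted p under 0.05.

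Knockout and wild-type cells were also set against each other at each plasmid, in the fit without a replicate block. With STING, limma called 148 of 12254 genes higher in knockout cells (1.21%) and 67 lower (0.547%), and with vector 4 higher (0.0326%) and 2 lower (0.0163%). DDIT3 differed by -0.97 with STING (limma adjusted p = 0.0439) and by -0.05 with vector (limma adjusted p = 0.940). CHAC1 differed by -1.54 with STING (limma adjusted p = 0.0477) and by -0.29 with vector (limma adjusted p = 0.703). These calls rest on all 8 libraries: without any 1 of them, 0 or 1 genes were called in either comparison. That a gene passed with STING and not with vector does not show that its effects differed, for which the difference of effects above is the test.

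Promoter sequence was looked at for the stress genes whose layouts diverged and for HSPA5, the main luminal chaperone of the endoplasmic reticulum. In textbook accounts ATF4 acts at C/EBP-ATF elements and ATF6 at the ER stress element. The 250 bases before the gene start are printed 5′ to 3′ from RefSeq (GRCh38.p14), with capitals marking a match to TGATGNAA, the core of the C/EBP-ATF element, or to the ER stress element, CCAAT and CCACG with 9 bases of any kind between them, both searched on both strands.
DDIT3 (chr12:57520515-57520764, minus strand): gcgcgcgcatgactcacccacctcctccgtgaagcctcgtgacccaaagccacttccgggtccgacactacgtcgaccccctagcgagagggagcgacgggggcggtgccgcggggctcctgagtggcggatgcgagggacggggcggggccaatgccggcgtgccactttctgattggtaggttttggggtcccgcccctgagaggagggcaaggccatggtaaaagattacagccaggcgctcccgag
CHAC1 (chr15:40953221-40953470, plus strand): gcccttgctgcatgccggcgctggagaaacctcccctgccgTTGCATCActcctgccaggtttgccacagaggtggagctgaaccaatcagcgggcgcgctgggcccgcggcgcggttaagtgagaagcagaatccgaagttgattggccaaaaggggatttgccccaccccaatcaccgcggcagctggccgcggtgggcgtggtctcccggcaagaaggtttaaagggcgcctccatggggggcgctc
ASNS (chr7:97872409-97872658, minus strand): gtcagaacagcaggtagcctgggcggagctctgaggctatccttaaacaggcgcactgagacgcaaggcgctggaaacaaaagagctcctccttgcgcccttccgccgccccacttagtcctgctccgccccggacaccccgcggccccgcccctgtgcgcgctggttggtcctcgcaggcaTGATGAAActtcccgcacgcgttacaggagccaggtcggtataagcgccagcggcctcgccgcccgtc
HSPA5 (chr9:125241344-125241593, minus strand): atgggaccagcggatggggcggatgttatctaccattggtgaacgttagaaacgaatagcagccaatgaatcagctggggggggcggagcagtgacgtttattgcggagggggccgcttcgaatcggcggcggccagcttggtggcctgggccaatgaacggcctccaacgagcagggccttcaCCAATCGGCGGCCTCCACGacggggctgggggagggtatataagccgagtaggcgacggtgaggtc
The capitals are a C/EBP-ATF match on the reverse strand in CHAC1, a C/EBP-ATF match in ASNS and an ER stress element in HSPA5. The DDIT3 window holds neither motif as an exact match. Bases further upstream and inexact matches were not searched, so this does not show that the DDIT3 promoter lacks such elements. TGATGNAA was present in 3.19% of 27305 RefSeq promoters of this length, in 1.24% of the 5336 matched genes among the 6340, and in 5 of 30 matched stress response targets, which were CHAC1, ATF3, ASNS, HERPUD1 and AARS. Of these CHAC1 alone had an unadjusted p under 0.05 for the difference of effects. The ER stress element was present in 0.0806% of all promoters and in 7 of 23 matched endoplasmic reticulum genes, among them HSPA5, HSP90B1 and CALR. A match is a run of letters in the window and not a bound site, and the build of these promoters differs from the hg19 build of the deposited values, which carry no coordinates.

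Chaperones and quality control genes of the endoplasmic reticulum had, as a list, STING effects that were higher in knockout than in wild-type cells, relative to all genes. Of the 34 genes 26 had a mean of at least 5, 17 of the 26 lay above the median difference of all genes, and the list's median difference was 0.31 relative to it. The median STING effect relative to all genes was 0.01 in knockout cells and -0.24 in wild-type cells. The sign held under each of the 20 alternatives run, some of which cannot move a list's median. The median was 0.03 without knockout vector library 1, 0.12 without knockout STING library 2 and 0.17 without wild-type vector library 2.

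DERL3, a protein that helps to pull misfolded proteins out of the endoplasmic reticulum, was the 1 member with an unadjusted p under 0.05 (background 2.67%). It stood at 54.2 and 54.9 FPKM in knockout STING libraries and 42.2 and 42.5 FPKM in knockout vector libraries, against 17.7 and 19.2 FPKM in wild-type STING libraries and 26.9 and 24.7 FPKM in wild-type vector libraries. STING libraries were above vector libraries in knockout cells and below them in wild-type cells, with no overlap. The difference of effects was 0.82 (SE 0.24, 95% interval 0.27 to 1.37, limma unadjusted p = 0.00909, adjusted p = 0.966). The wild-type effect was -0.46, and -0.09 with median-of-ratios scaling. With that scaling the knockout effect was 0.54 and the difference 0.63 (limma unadjusted p = 0.0480). SDF2L1, a luminal partner of chaperones, stood at 217 and 261 FPKM in knockout STING libraries and 269 and 347 FPKM in knockout vector libraries, against 237 and 205 FPKM in wild-type STING libraries and 432 and 404 FPKM in wild-type vector libraries. It was lower with STING in both genotypes, and the difference of effects was 0.56 (SE 0.28, limma adjusted p = 0.966). HSPA5 (BiP) stood at 7.97 and 14.7 FPKM in knockout STING libraries and 8.81 and 19.1 FPKM in knockout vector libraries, against 13.5 and 10.8 FPKM in wild-type STING libraries and 19.2 and 25.5 FPKM in wild-type vector libraries. Its replicates differed by about as much as its groups, and the interval of its difference ran from -0.73 to 1.89.

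Cholesterol synthesis genes had a like layout. Of 28 genes 22 had a mean of at least 5, and their median effect relative to all genes was -0.01 in knockout cells and -0.26 in wild-type cells, with a median difference of 0.34 and 17 of 22 above the median gene. That median was 0.19 without knockout vector library 1 and 0.21 without knockout STING library 2. TM7SF2, a sterol reductase, stood at 63.3 and 82.7 FPKM in knockout STING libraries and 58.6 and 70.8 FPKM in knockout vector libraries, against 40.7 and 35.1 FPKM in wild-type STING libraries and 68.0 and 65.0 FPKM in wild-type vector libraries. The knockout groups overlapped and the wild-type STING libraries were the low ones, a difference of 0.96 (SE 0.28, 95% interval 0.30 to 1.62, limma unadjusted p = 0.0103, adjusted p = 0.966). MVD, the decarboxylase of the mevalonate pathway, differed by 0.66 (limma unadjusted p = 0.0357, adjusted p = 0.966), and by 0.47 with median-of-ratios scaling (limma unadjusted p = 0.173). INSIG1, which retains the sterol sensor SCAP in the endoplasmic reticulum, differed by 1.02 (limma unadjusted p = 0.0852, adjusted p = 0.966). TM7SF2 and MVD were the 2 members with an unadjusted p under 0.05, and 5 members had separated libraries with the knockout effect above, against a background of 12.2%.

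Glycolysis and hypoxia genes had the highest median of the lists with at least 5 members. Of 30 genes 23 had a mean of at least 5, and 22 of the 23 lay above the median difference of all genes, with VEGFA, an angiogenic factor, as the 1 below it. The median effect relative to all genes was 0.40 in knockout cells and -0.04 in wild-type cells, with a median difference of 0.40 that stayed between 0.33 and 0.52 when single libraries were left out. PFKL, the liver-type phosphofructokinase, stood at 28.4 and 35.0 FPKM in knockout STING libraries and 30.2 and 29.0 FPKM in knockout vector libraries, against 15.5 and 11.7 FPKM in wild-type STING libraries and 28.9 and 22.2 FPKM in wild-type vector libraries. Its wild-type STING libraries were the low group, and the difference of effects was 0.96 (SE 0.32, limma unadjusted p = 0.0188, adjusted p = 0.966). NDRG1, a hypoxia-induced gene, stood at 13.8 and 16.0 FPKM in knockout STING libraries and 6.03 and 7.22 FPKM in knockout vector libraries, against 3.95 and 4.04 FPKM in wild-type STING libraries and 3.27 and 3.55 FPKM in wild-type vector libraries. Its knockout STING libraries were the high group, and the difference of effects was 0.88 (SE 0.29, limma unadjusted p = 0.0154, adjusted p = 0.966).

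**Figure D3:**
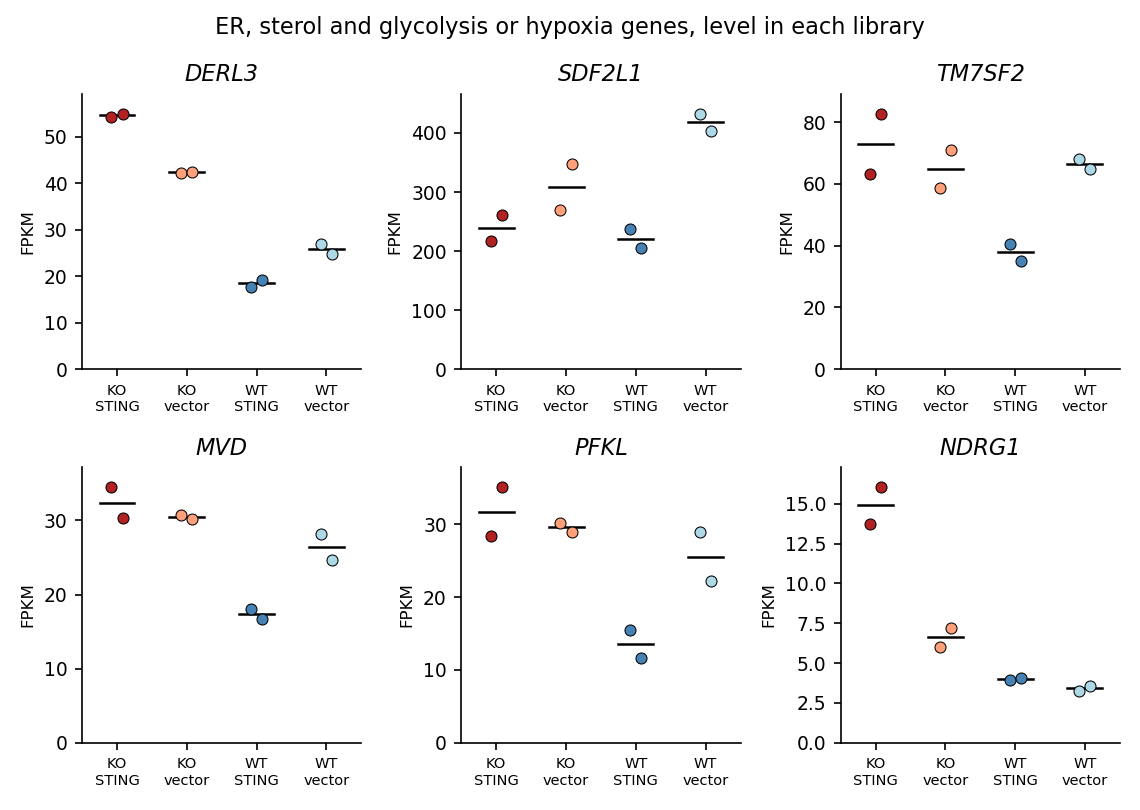
Level in FPKM of DERL3, SDF2L1, TM7SF2, MVD, PFKL and NDRG1 in each of the 8 libraries, with PERK knockout (KO) groups left of wild-type (WT) groups; points are libraries and bars are means of 2. TM7SF2, MVD and PFKL are lowest in wild-type STING libraries, while NDRG1 is highest in knockout STING libraries and DERL3 is higher in all knockout libraries than in wild-type ones.

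Ribosomal protein lists lay on the other side. Mitochondrial ribosomal proteins (76 of 79) had a median effect relative to all genes of -0.21 in knockout cells and 0.02 in wild-type cells. Their median difference was -0.23, below 0 under each of the 20 alternatives run, some of which cannot move a list's median. It was -0.13 without wild-type vector library 2. MRPL22, a protein of the large subunit, stood at 34.3 and 33.0 FPKM in knockout STING libraries and 60.2 and 49.6 FPKM in knockout vector libraries, against 79.6 and 66.5 FPKM in wild-type STING libraries and 73.9 and 69.8 FPKM in wild-type vector libraries. The difference of effects was -0.70 for MRPL22 and -0.71 for MRPL42, while MRPS5 of the small subunit went the other way at 0.70 (limma adjusted p = 0.966 each). With median-of-ratios scaling MRPS5 differed by 0.51 (limma unadjusted p = 0.128). Cytosolic ribosomal proteins (78 of 79) had a median difference of -0.26 relative to all genes with 68 of 78 below the median gene, but the median was 0.003 with quantile normalization and 0.05 without knockout STING library 2 or knockout vector library 1. It was -0.02 without wild-type vector library 2. RPL3 was their 1 member with an unadjusted p under 0.05, with a difference of 0.56 in the other direction, and 0.36 with median-of-ratios scaling (limma unadjusted p = 0.316). Cytosolic ribosomal proteins together took 53.3% and 44.6% of FPKM in knockout STING libraries and 52.4% and 44.0% in knockout vector libraries, against 45.0% and 41.7% in wild-type STING libraries and 43.8% and 36.9% in wild-type vector libraries. Translation factors (45 of 48) lay at -0.02 and nuclear genes of oxidative phosphorylation (75 of 76) at -0.20 (0.02 without wild-type vector library 2), each with 0 members under an unadjusted p of 0.05.

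Interferon and NF-kB lists gave no direction that held. Interferon-stimulated genes (11 of 31) had a median difference of 0.06 relative to all genes and no member with an unadjusted p under 0.05, and the median ran from -0.19 to 0.36 when single libraries were left out. ISG15, a ubiquitin-like protein made in response to interferon, stood at 75.4 and 71.8 FPKM in knockout STING libraries and 52.6 and 51.6 FPKM in knockout vector libraries, against 168 and 124 FPKM in wild-type STING libraries and 109 and 82.7 FPKM in wild-type vector libraries. STING libraries were higher in both genotypes, at lower levels in knockout cells, and the difference of effects was -0.11 (95% interval -0.81 to 0.59). NF-kB targets (8 of 25) lay at 0.20, and at -0.20 without knockout vector library 2. NFKBIA, the inhibitor that NF-kB induces, stood at 106 and 108 FPKM in knockout STING libraries and 97.9 and 92.7 FPKM in knockout vector libraries, against 128 and 126 FPKM in wild-type STING libraries and 72.9 and 81.4 FPKM in wild-type vector libraries. The groups did not overlap in either genotype, and the STING effect was 0.17 in knockout and 0.71 in wild-type cells, a difference of -0.54 (SE 0.22, limma unadjusted p = 0.0400, adjusted p = 0.966). Immediate early genes (19 of 31) had a median effect relative to all genes of 0.13 in knockout cells and 0.53 in wild-type cells and a median difference of -0.22. That median was -0.06 with a minimum mean of 10 and lay between -0.27 and -0.17 under the other alternatives. No member had an unadjusted p under 0.05, and 4 had separated libraries with the knockout effect below (background 3.77%). That background of 239 genes came to 587 with median-of-ratios scaling.

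The other lists gave smaller medians of the difference relative to all genes. DNA replication (35 of 41) lay at 0.16, p53 targets (16 of 27) at 0.14, the proteasome (38 of 39) at 0.10, NRF2 targets (13 of 22) at 0.08, autophagy and lysosome genes (36 of 50) at 0.06 and pro-apoptotic genes (19 of 27) at 0.05. Cytosolic heat shock proteins (24 of 28) lay at -0.02, components of the STING pathway with the eIF2alpha kinases (11 of 21) at -0.03, survival genes (13 of 21) at -0.04, mitosis genes (25 of 35) at -0.07 and replication-dependent histones (22 of 31) at -0.15. Each of these 11 medians changed sign under at least 1 alternative. HEK293 markers (5 of 10) lay at 0.31, with KRT8, a keratin, at 67.9 and 68.3 FPKM in knockout STING libraries and 54.7 and 65.2 FPKM in knockout vector libraries, against 11.8 and 13.7 FPKM in wild-type STING libraries and 15.6 and 18.6 FPKM in wild-type vector libraries. The level of this line marker thus differed between the genotypes with vector alone, and its part in the other results was not tested. Fewer than 5 members reached a mean of 5 for secreted factors (4 of 29), matrix genes (2 of 24) and haematopoietic markers (1 of 8), and none for hepatocyte and fibroblast markers.

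**Figure D4:**
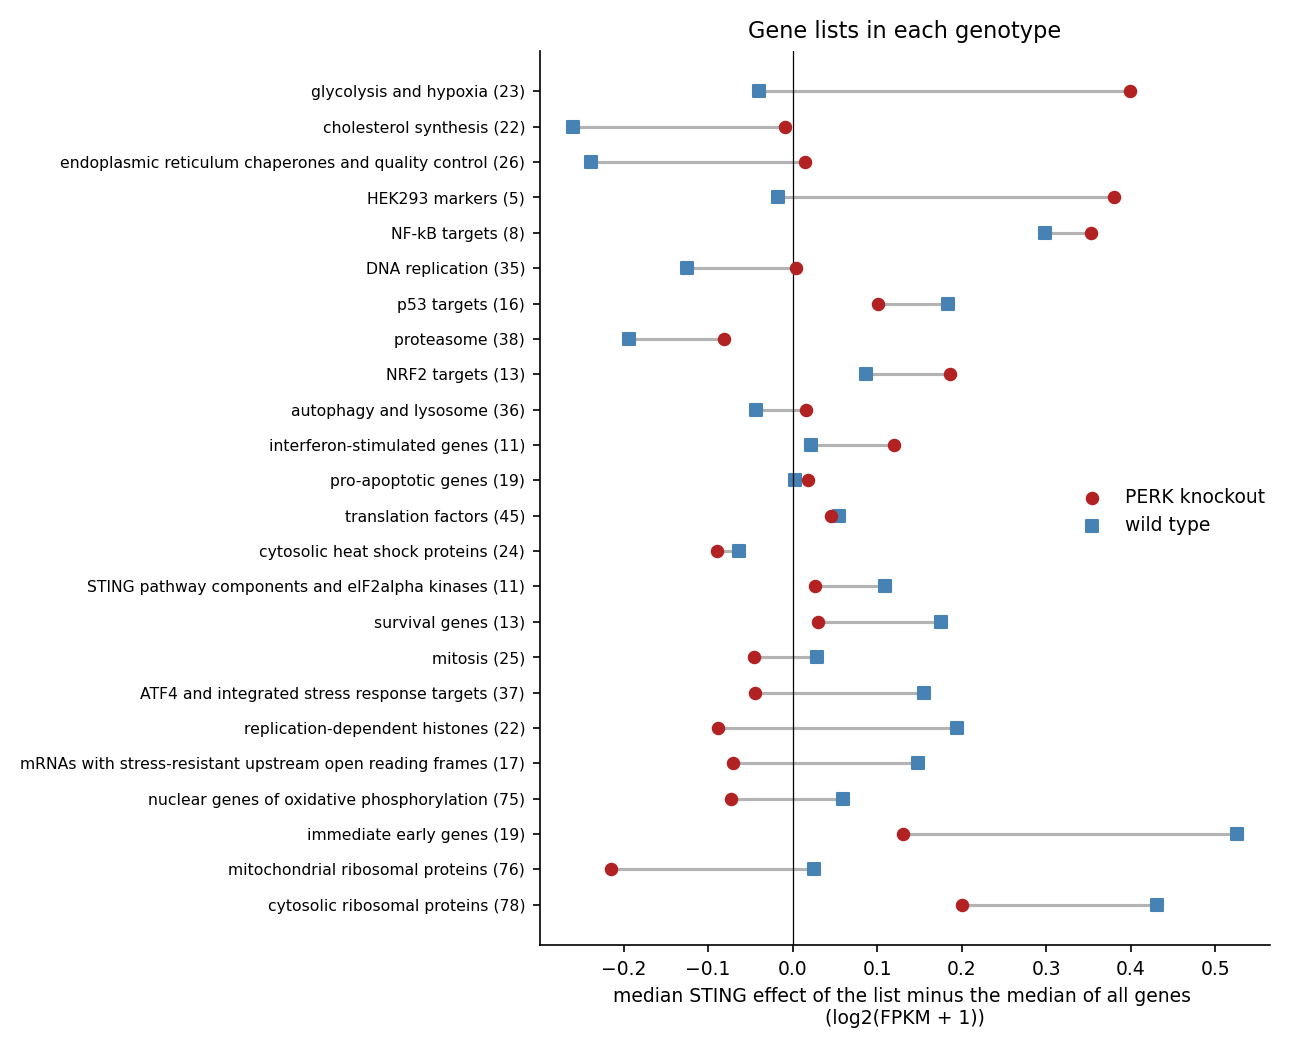
Median STING effect of each gene list minus that of all genes with a mean of at least 5, in PERK knockout cells (circles) and wild-type cells (squares), in log2(FPKM + 1); the number of members is in brackets and lists are ordered by their median difference of effects. Glycolysis, cholesterol synthesis and endoplasmic reticulum genes stand at the top with the knockout median to the right, and ribosomal protein and immediate early lists at the bottom with it to the left.

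Among single genes outside these lists, the 12 largest differences above, taken from genes with separated libraries and an unadjusted p under 0.05, ran from 1.19 to 1.85, with group values mostly near 10 FPKM or lower. All 12 had a negative STING effect in wild-type cells, and 11 had a positive one in knockout cells. These signs follow in part from the choice, and the median wild-type effect of all 6340 genes was itself negative (-0.37). STOML1, a stomatin-like membrane protein, had the lowest p of the 12. It stood at 6.07 and 7.56 FPKM in knockout STING libraries and 4.92 and 7.54 FPKM in knockout vector libraries, against 2.96 and 3.62 FPKM in wild-type STING libraries and 10.3 and 11.7 FPKM in wild-type vector libraries, a difference of 1.62 (SE 0.35, limma unadjusted p = 0.00196, adjusted p = 0.966). PLSCR3, a phospholipid scramblase of mitochondria, stood at 7.93 and 4.99 FPKM in knockout STING libraries and 10.5 and 6.43 FPKM in knockout vector libraries, against 1 (the floor) and 1.41 FPKM in wild-type STING libraries and 5.80 and 8.57 FPKM in wild-type vector libraries. In both genes the wild-type STING libraries were the low group and the knockout groups overlapped. The others were OSTN, a secreted peptide, DIDO1, ACAD8 of valine breakdown, the lysosomal protease CTSF, PIGO of GPI anchor synthesis, the mitochondrial disaggregase CLPB, PQLC3, LRRC23, C14orf80 and the read-through entry C15orf38-AP3S2.

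The 12 largest differences below included TMEM173, CHAC1 and NUPR1. LRIF1, a nuclear protein that binds heterochromatin, stood at 2.17 and 2.06 FPKM in knockout STING libraries and 7.22 and 6.25 FPKM in knockout vector libraries, against 7.14 and 6.06 FPKM in wild-type STING libraries and 7.46 and 7.60 FPKM in wild-type vector libraries. Knockout STING libraries were the low group, and the difference was -1.14 (SE 0.28, limma unadjusted p = 0.00380, adjusted p = 0.966). GNG11, a G protein gamma subunit, stood at 5.22 and 10.4 FPKM in knockout STING libraries and 23.7 and 25.1 FPKM in knockout vector libraries, against 5.54 and 5.28 FPKM in wild-type STING libraries and 8.93 and 7.14 FPKM in wild-type vector libraries. As for NUPR1, the knockout vector libraries were the high group. The others were the histones HIST1H2AD and HIST1H2BO, the transcription factor BATF3, C13orf15 (RGCC), FGFR1OP2, C19orf81 and AP3S2, a subunit of the AP-3 adaptor. AP3S2 and C15orf38-AP3S2 share sequence and had differences of opposite sign (-1.64 and 1.85), so how reads were divided between them is uncertain. Of the 12, 11 had a negative effect in knockout cells and 9 a positive one in wild-type cells, signs that again follow in part from the choice.

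STING effects of the 2 genotypes share no library, but their tests share, for each gene, the spread estimated from all 8 libraries. Genes with a small spread pass more easily in both, which raises the overlaps below. The overlaps therefore do not measure how far the responses were shared. Genes with an unadjusted p under 0.05 and a negative effect numbered 615 in knockout cells (9.7%) and 1039 in wild-type cells (16.4%), and 189 were shared. These made up 30.7% of the knockout set, where 16.4% of all 6340 genes were in the wild-type set, and 18.2% of the wild-type set, where 9.7% of all were in the knockout set. Positive ones numbered 33 in knockout cells (0.521%) and 20 in wild-type cells (0.315%), and 6 were shared, 18.2% of the knockout set (0.315% of all genes were in the wild-type set) and 30.0% of the wild-type set (0.521% of all were in the knockout set). TMEM173 was the single gene past a limma adjusted p of 0.05 in each (0.00816% of all genes tested). Across the 6340 genes the effects correlated with Pearson r = 0.272 and Spearman rho = 0.111, where genes are not independent replicates and the pairs of libraries share their table and its scaling.

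The first experiment gave STING-responsive genes that were chosen without any library of the knockout experiment. There limma called 238 of 9464 genes higher with STING (2.51%) and 879 lower (9.29%), counts that came to 40 in all without STING library 1 of that experiment and 35 without STING library 2. Of the higher set, the 184 genes with a mean of at least 5 in the knockout experiment had a median effect relative to all genes of 0.18 in knockout cells and 0.16 in wild-type cells, with a median difference of -0.01. Of the lower set, 801 such genes had -0.06 in knockout cells and -0.08 in wild-type cells, with a median difference of 0.01. Chosen without vector library 1 of that experiment, 73 higher genes had 0.22 in knockout cells and 0.34 in wild-type cells with a median difference of -0.11, and 474 lower genes had -0.05 in knockout cells and -0.12 in wild-type cells with a median difference of 0.06. Chosen without its vector library 2, 111 higher genes had 0.16 in knockout cells and 0.26 in wild-type cells with a median difference of -0.04, and 377 lower genes had -0.07 in knockout cells and -0.05 in wild-type cells with a median difference of -0.05. Across 6271 genes the effects of the first experiment correlated with those in wild-type cells with Pearson r = 0.343 (Spearman rho = 0.211). With those in knockout cells Pearson r was 0.185 (Spearman rho = 0.0968), where genes are not independent replicates. Among the genes that stood highest in the first experiment, PMAIP1 (NOXA), a BH3-only protein of apoptosis, had a log2 change there of 2.03 (limma adjusted p = 0.000654). With knockout and wild-type cells side by side its levels were 26.4 and 33.8 FPKM in knockout STING libraries and 27.4 and 46.1 FPKM in knockout vector libraries, against 53.6 and 59.9 FPKM in wild-type STING libraries and 36.2 and 48.5 FPKM in wild-type vector libraries. Only the wild-type STING libraries lay clear of their own vector libraries, and the difference was -0.67 (SE 0.40, limma adjusted p = 0.966). EEF2, the translocase of elongation, was also higher in the first experiment, by 1.39 (limma adjusted p = 0.00161). It stood at 474 and 603 FPKM in knockout STING libraries and 327 and 404 FPKM in knockout vector libraries, against 199 and 224 FPKM in wild-type STING libraries and 200 and 227 FPKM in wild-type vector libraries, a difference of 0.57 (SE 0.28, limma adjusted p = 0.966). ZDHHC12, a palmitoyltransferase that was lower in the first experiment, differed by 0.76 (SE 0.24, limma unadjusted p = 0.0134, adjusted p = 0.966), and by 0.56 with median-of-ratios scaling (limma unadjusted p = 0.105).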

How the data were processed

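Polysome-fraction RNA of HEK293 cells was sequenced from Smart-seq2 cDNA, per the labels' protocols. TopHat2 2.1.1, Cufflinks 2.2.1 and genome build hg19 are named in the submitters' processing notes. The values deposited for the knockout experiment do not name their unit. Their range and header led to reading them as FPKM with a lower bound of 1, and the deposited table of the first experiment was likewise read as FPKM, with values down to 0. No counts are given, so depth is unknown and no counting interval is given.

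Values were used without further scaling on log2(FPKM + 1). Limma 3.58.1 in R 4.3.3 (eBayes with trend and robust) was fitted with 4 group means to 12254 genes averaging 1 or more, after 167 symbols at the floor throughout were left out, with Benjamini-Hochberg adjustment over all of them and two-sided tests. The members and the 32 gene lists were chosen with earlier results of these data known. Named genes were the label checks, the 12 largest separated differences in each direction, the first 3 members of each list and members with an unadjusted p under 0.01, and the 6 genes with the lowest p in each direction of the first experiment. List members with an unadjusted p under 0.05 were named where they numbered 5 or fewer. Mitochondrially encoded mRNAs, small nucleolar RNA hosts and nuclear noncoding RNAs matched no symbol and were not analysed here. Titles gave groups and replicate numbers. Whether replicates came from separate cultures is not given in the sources used here, so each p-value reflects only how far these libraries scatter, possibly for technical reasons. The fit was tested on simulated data. Alternatives covered filters, pseudocounts, scaling, moderation, a replicate block, the floor and leaving out each library.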

Additional observations from a re-analysis of the deposited data

How the results depend on the processing

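The count of 0 genes for the difference of effects held under every alternative that kept all 8 libraries. In 542 values of 28 named genes under the 20 alternatives the direction held in each. Most of these genes were chosen for separated libraries, and for those leaving out any 1 library cannot turn the direction. Changes of filter, moderation or block leave the estimate of a gene as it was. The held direction was thus largely fixed by the choice of genes and does not measure how stable their differences are. Other counts moved. Genes called in knockout against wild-type cells with STING (215) came to 356 with a minimum mean of 5, 449 with median-of-ratios scaling, 468 with quantile normalization, 851 with a replicate block, 1315 with the block and median-of-ratios scaling, and 0 to 1 when single libraries were left out. With vector (6) they came to 32 and 17 with minimum means of 5 and 10, 17 with no pseudocount and with one of 0.1, 53 with median-of-ratios scaling, 24 with quantile normalization, 0 without trend and robust moderation, 105 with the replicate block, 268 with the block and median-of-ratios scaling, 22 without floored genes, and 0 to 1 without single libraries. The STING effect in knockout cells (1 call) gave 2 with the replicate block and 1 to 3 without single libraries, and that in wild-type cells (1 call) 1 to 2.

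Genes with an unadjusted p under 0.05 for the difference, higher (169), came to 88 with a minimum mean of 10, 73 with median-of-ratios scaling, 100 with quantile normalization, 284 without trend and robust moderation, 455 with the replicate block and 64 to 445 without single libraries, with 445 without knockout STING library 1, 443 without knockout vector library 2, and 64, 101 and 95 without wild-type STING libraries 1 and 2 and vector library 2. The lower ones (45) came to 130 with median-of-ratios scaling, 149 with quantile normalization, 69 without trend and robust moderation, 122 with the replicate block, 392 with the block and median-of-ratios scaling and 12 to 83 without single libraries, with 83 without knockout STING library 2, 68 without knockout vector library 2, and 12 and 29 without wild-type STING libraries 1 and 2. Separated genes above (774) came to 449 with median-of-ratios scaling and 483 with quantile normalization, and those below (239) to 587 and 581. The first experiment (1117) gave 17 without trend and robust moderation, 580 with no filter and 35 to 653 without single libraries. The cause of these moves was not tested.

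Groups share only the replicate numbers 1 and 2, and deviations of same-numbered libraries correlated across genes with r from 0.105 to 0.605, which with 2 numbers does not establish a pairing. Of 24 lists with at least 5 members, 7 kept the sign of their median difference under all 20 alternatives: glycolysis and hypoxia, cholesterol synthesis, endoplasmic reticulum genes, HEK293 markers, mitochondrial ribosomal proteins, immediate early genes and mRNAs with upstream open reading frames. Changes of moderation or block, no filter and a minimum mean of 5 leave a list's median as it was. Those alternatives could not turn a sign, so the 20 are not 20 separate checks. With 2 libraries in each group, and one fit that assumes a like spread in all 4, the precision of single genes is limited, and depth is unknown.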

Other observations

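Histone HIST1H4C, a replication-dependent histone H4 gene chosen after its values were seen, stood at 6772 and 4475 FPKM in knockout STING libraries and 11002.5 and 8797 FPKM in knockout vector libraries, against 13535 and 14358.5 FPKM in wild-type STING libraries and 16627 and 12790 FPKM in wild-type vector libraries. Its difference of effects was -0.77 (SE 0.36, limma unadjusted p = 0.0668, adjusted p = 0.966). HIST1H2BK, a member of the same list, differed by -0.66 (SE 0.23, limma unadjusted p = 0.0203, adjusted p = 0.966), with STING libraries below vector libraries in knockout cells and above them in wild-type cells.

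Entries of the MTRNR2L family, nuclear copies of mitochondrial ribosomal RNA sequence, took 11.7% and 15.9% of all FPKM in knockout STING libraries and 7.22% and 10.3% in knockout vector libraries, against 12.1% and 16.7% in wild-type STING libraries and 8.87% and 14.3% in wild-type vector libraries. These 8 entries are near-identical copies, so how reads were divided among them and the mitochondrial gene is uncertain. MTRNR2L1, chosen after its values were seen, had a STING effect of 0.62 in knockout cells and 0.51 in wild-type cells, a difference of 0.11 (SE 0.30).

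The interferon-induced gene IFIT2, chosen after its values were seen, stood at 1.06 and 1.19 FPKM in knockout STING libraries and at the floor of 1 FPKM in both knockout vector libraries, against 8.59 and 7.60 FPKM in wild-type STING libraries and 5.05 and 9.61 FPKM in wild-type vector libraries. The chemokine CCL5 stood at 25.5 and 15.9 FPKM in knockout STING libraries and 17.3 and 11.9 FPKM in knockout vector libraries, against 112 and 95.7 FPKM in wild-type STING libraries and 131 and 110 FPKM in wild-type vector libraries. Both were lower in knockout cells whatever the plasmid, while their differences of STING effects were -0.09 (SE 0.40) for IFIT2 and 0.67 (SE 0.39) for CCL5.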
